A study of Mus musculus with 1012 samples.

Results

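Resting macrophage-like RAW-G9 cells were compared with IBA brown preadipocytes by whole-cell single-cell RNA sequencing (scRNA-seq). The members are all cells that the sample labels give as scRNA-seq of untreated RAW-G9 or of IBA, 310 of the 1012 libraries of the series, of which 95, 46 and 16 RAW-G9 cells and 93, 45 and 15 IBA cells came from 3 batches. The study developed Live-seq, in which cytoplasm is drawn from a living cell and sequenced, and ran conventional scRNA-seq on the same cell types as its whole-cell reference. Each library is 1 mouse cell, sequenced by an enhanced Smart-seq2 protocol that reads polyadenylated RNA along the full transcript without molecular identifiers. RAW-G9 is a single clone of RAW264.7, a male mouse monocyte/macrophage line transformed by Abelson leukaemia virus, and carries mCherry under the promoter of Tnf together with an EGFP fusion to Rela. IBA is an immortalized line made from stromal vascular cells of the interscapular brown fat of young male C57BL6/J mice. Both lines grew in high-glucose DMEM with serum. The labels give both groups as not treated, and the study describes its unstimulated RAW cells as mock-treated with PBS. Each group is therefore 1 cell line, and line, genetic background and culture handling cannot be told apart from cell type.

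Macrophages are phagocytes of the blood lineage. Their identity is held by transcription factors such as PU.1 and IRF8, they survive on signals through the CSF1 receptor, and they sense microbes with Toll-like and Fc receptors, kill with an oxidase and digest in lysosomes. Brown preadipocytes are fibroblast-like precursors of heat-producing fat cells. They lie in a collagen matrix that they make themselves, respond to platelet-derived and fibroblast growth factors, and enter adipogenesis through PPARγ and C/EBP factors. The comparison asks how far these lineages differ when neither has been stimulated.

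Both lines were sequenced in the same 3 batches, named 8_8, 9_1 and scRNA in the labels, with 16, 46 and 95 RAW-G9 cells and 15, 45 and 93 IBA cells. Total counts ranged from 41030 to 1348804 per RAW-G9 cell (median 433219) and from 124920 to 2671609 per IBA cell (median 467990). The median share of mitochondrial counts was 5.06%, 9.41% and 9.19% in RAW-G9 and 3.33%, 9.18% and 6.71% in IBA, so it was higher in RAW-G9 in every batch. Its part in the results was not tested. No pair of cells had identical counts. Counts were summed per line and batch, which gave 3 sums a side, and the sums were the replicates. Nothing in the labels says that the batches were separate cultures. The p-values measure the spread left among the 12 scRNA-seq sums of 5 states after batch was taken out as a block. They do not measure a spread between separate cultures. Levels are given as CPM (counts of a gene per 1e+06 counts of the sum) and always in the order 8_8, 9_1 and scRNA.

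The labels were checked first on lists of 10 macrophage and 10 mesenchymal marker genes. All RAW-G9 cells held macrophage counts, and of the counts on both lists at most 1.14% were mesenchymal in any of them. Among the IBA cells the median share of macrophage counts was 0.0352%, 6 cells had over 1%, and 2 of these, both of batch 9_1, had over 10%, of which 1 had 100%. This IBA-labelled cell, with 801404 counts and 7049 genes, held 18208 counts of the macrophage list with all 10 genes detected, and 0 counts of the mesenchymal list. It held 820 counts of Laptm5 against 0 of Ptn and 0 of Col12a1, so it went against its label. It also had 0 counts of EGFP and of mCherry, as did 6 RAW-G9 cells, of which 1 was in batch 9_1. Of the 12 genes with the largest rise in RAW-G9, given below, it held no count of Spink5, Amy1 and Acod1 but held the others. Those 3 were counted in 99.4%, 98.7% and 90.4% of RAW-G9 cells. What this cell is was not tested. It was kept in the main analysis, because the labels put it there, and the calls, the list medians it moved and the values of named genes it touched most are also given without it. It supplied most of the macrophage transcripts in the IBA sum of batch 9_1.

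**Figure D1:**
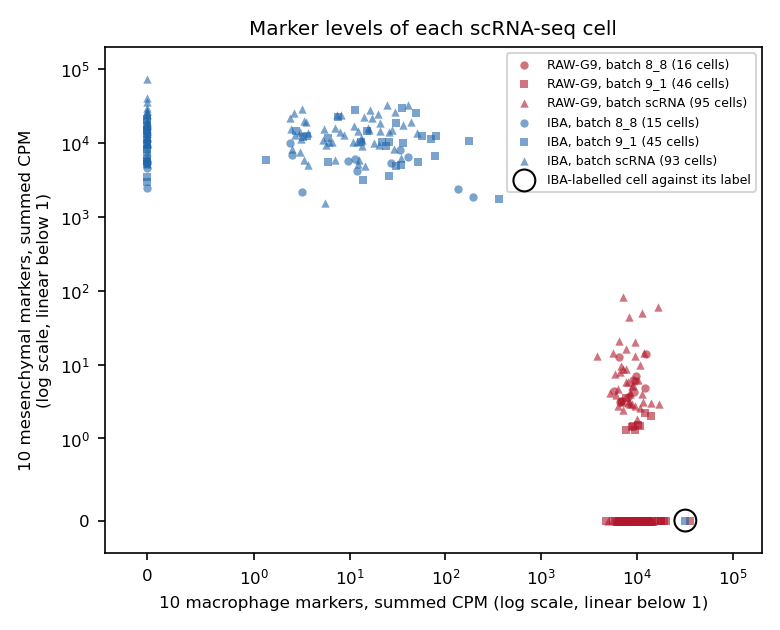
Each point is 1 scRNA-seq cell, placed by the summed CPM of 10 macrophage markers (x axis) and of 10 mesenchymal markers (y axis), both on log scales that are linear below 1, with colour for the line and shape for the batch. The RAW-G9 and IBA cells form separate groups. The circled IBA-labelled cell of batch 9_1 lies at 0 on the mesenchymal axis and near the upper end of the RAW-G9 cells on the macrophage axis.

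The reporters gave a second check of the labels. EGFP was detected in 94.3% of RAW-G9 cells and in 1 IBA cell, and mCherry in 66.9% of RAW-G9 cells and in 0 IBA cells, which allows up to 1.96% of IBA cells with a count and says nothing on cells that express it below detection. EGFP stood at 63.9, 110.8 and 108.8 CPM in the RAW-G9 sums and at 0, 0.0317 and 0 CPM in the IBA sums, where 1 count was found. The ratio of the pooled levels was 7309.9 (95% interval 1312 to 288766). mCherry stood at 16.8, 55.5 and 192.5 CPM in RAW-G9, at least 2884-fold above the floor that 3 counts over the IBA line would give. Tnf, whose promoter drives it, stood at 79.8, 223.5 and 335.04 CPM in the same sums. Both were lowest in batch 8_8 and highest in batch scRNA. Such intervals and floors describe counting error alone, because copies of 1 molecule cannot be recognised without molecular identifiers.

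The markers that named the comparison were set for this contrast and are also in the lists used to check the labels. Their values therefore describe the contrast and are no further check of the labels. Csf1r, the receptor for CSF1, was at 1450.3, 1272 and 2139 CPM in RAW-G9 and at 0.416, 28.2 and 0.929 CPM in IBA, and its 9_1 value in IBA fell to 1.68 CPM without the odd cell. The log2 fold change (± SE throughout) was 7.69 ± 1.41 (edgeR quasi-likelihood test, adjusted p = 0.00237) and 10.29 without that cell. Laptm5, a lysosomal membrane protein of blood cells, was at 1292, 1028 and 996.2 CPM against 0, 26.1 and 0.0929 CPM, with a log2 fold change of 8.12 ± 1.62 (adjusted p = 0.00355) and 13.86 without the cell. Csf1r was still counted in 23 of the remaining IBA cells (15.1%), against 100% of RAW-G9 cells, whereas Laptm5 was counted in 4 (2.63%).

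On the other side, Ptn, which encodes the secreted growth factor pleiotrophin, was at 228.995, 1491 and 1583 CPM in IBA and at 0.231, 0.0391 and 0.320 CPM in RAW-G9, a log2 fold change of -13.12 ± 1.04 (adjusted p = 2.84e-05). Col12a1, a collagen that decorates fibrils, was at 40.97, 87.8 and 119.7 CPM in IBA and had no count in RAW-G9, so it was at least 2134-fold higher in IBA (adjusted p = 5.64e-05). Ptn was counted in 94.8% of IBA cells and in 6.37% of RAW-G9 cells. For all 4 markers the groups of sums did not overlap, which held for 5646 of the 12041 genes tested. RAW-G9 cells lacked some textbook macrophage markers, however. Itgam was counted in 14 RAW-G9 cells (8.92%), Adgre1 in 5 and Itgax in 1, and Cd86, Mrc1, Marco and Clec7a in none, so none of them passed the detection filter.

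Markers of other cell types were nearly absent. The summed level of 5 lymphocyte, 6 epithelial and 5 mature adipocyte markers was at most 1.16 CPM in any sum, and Cd3e, Krt5, Krt8, Cdh1, Cidec and Lep had no count in either line. The 6 endothelial markers summed to 17.8, 16.8 and 11.3 CPM in RAW-G9 and to 7.90, 13.9 and 9.85 CPM in IBA. Of these 22 genes only Egfl7 passed the filter, and it was not called.

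Across 12041 genes tested, 1619 (13.4%) were called higher in RAW-G9 and 2605 (21.6%) higher in IBA, at an adjusted p under 0.05 and over 2-fold. These shares are the background for the counts of list members given below. The median log2 fold change of all genes tested was −0.15. Called genes had a median log2 fold change of −4.61 on the IBA side and 2.57 on the RAW-G9 side, or −4.50 and 2.55 among the calls made without the odd cell. Over 32-fold lay 48.2% of the IBA calls and 28.4% of the RAW-G9 calls, or 47.7% and 28.8% without the cell. No count in the other line was found for 20.9% of the IBA calls and for 5.68% of the RAW-G9 calls, and for 8.71% of those RAW-G9 calls once the cell was left out. Without the odd cell the calls were 1684 (14%) and 2632 (21.9%), all 1619 RAW-G9 calls and 2601 of 2605 IBA calls were kept, and 65 RAW-G9 calls were gained.

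Among called genes, the 12 with the largest rise in RAW-G9 in mean log2(CPM + 1) included macrophage genes and genes known from other tissues. Mycn, a MYC-family transcription factor known from neural and embryonic tissue, was at 2602, 2461 and 2953 CPM in RAW-G9 and at 0.624, 31.99 and 0.186 CPM in IBA, where the 9_1 value was 0.129 CPM without the odd cell. Its log2 fold change was 8.96 ± 1.56 (adjusted p = 0.00187), or 13.58 without that cell. Car2, a carbonic anhydrase, was at 2711, 3403 and 3259 CPM against 0.416, 16.5 and 0.558 CPM, a log2 fold change of 9.79 ± 1.17, or 13.16 without the cell. Both genes were picked for large differences, and all their RAW-G9 sums lay above all their IBA sums.

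Spink5, a serine protease inhibitor best known from skin, had no larger IBA value in batch 9_1 than in the others. It stood at 772.8, 1884 and 2229 CPM in RAW-G9 against 0.208, 0.0952 and 0.279 CPM in IBA, a log2 fold change of 13.02 ± 0.58 (adjusted p = 1.58e-06). Amy1, an amylase gene with close relatives that may share its reads, was at 841.97, 939.7 and 703.4 CPM against 0, 0 and 0.713 CPM, a log2 fold change of 11.32 ± 0.89. Acod1, which makes the antimicrobial metabolite itaconate, was at 115.5, 429.02 and 1498 CPM against 0, 0.0635 and 0.279 CPM, and differed among the RAW-G9 sums more than any other of the 12 did. Its log2 fold change was 11.95 ± 0.96 (adjusted p = 2.92e-05). The remaining genes were Csf1r, given above, and Cybb, Itga4, Lcp1, Cx3cr1, Cadm1 and Ctss, with log2 fold changes of 7.71 (Lcp1) to 9.57 (Cybb), or 10.86 (Cx3cr1) to 13.27 (Cadm1) without the odd cell.

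The 12 with the largest rise in IBA by the same measure were led by the matrix. Bgn, the small proteoglycan biglycan, was at 1807, 2632 and 5016 CPM in IBA and at 0.461, 0.117 and 0.931 CPM in RAW-G9, a log2 fold change of -12.98 ± 0.51 (adjusted p = 8.91e-07). Col1a1, the main fibrillar collagen chain, was at 1227, 1725 and 4994 CPM against 1.15, 0.0391 and 0.960 CPM, a log2 fold change of -12.54 ± 0.82. Sparc, a collagen-binding glycoprotein, was at 1153, 2355 and 2304 CPM against 1.84, 0.0391 and 0.436 CPM, a log2 fold change of -12.23 ± 0.96.

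Also among these 12 were genes outside the matrix. Nedd4, a ubiquitin ligase, was at 1103, 1122 and 1266 CPM in IBA against 0.231, 0.156 and 0.0873 CPM in RAW-G9, the narrowest spread of the group, with a log2 fold change of -13.28 ± 0.67 (adjusted p = 3.72e-06). Ccl2, the chemokine that draws monocytes, was at 914.3, 2327 and 756.001 CPM against 0.231, 0.117 and 0.204 CPM, a log2 fold change of -12.83 ± 0.84. The other members were Col1a2, Fbln2, Fstl1, Fn1, Lox, Ccn1 and Pcolce, at −13.25 to −11.36.

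**Figure D2:**
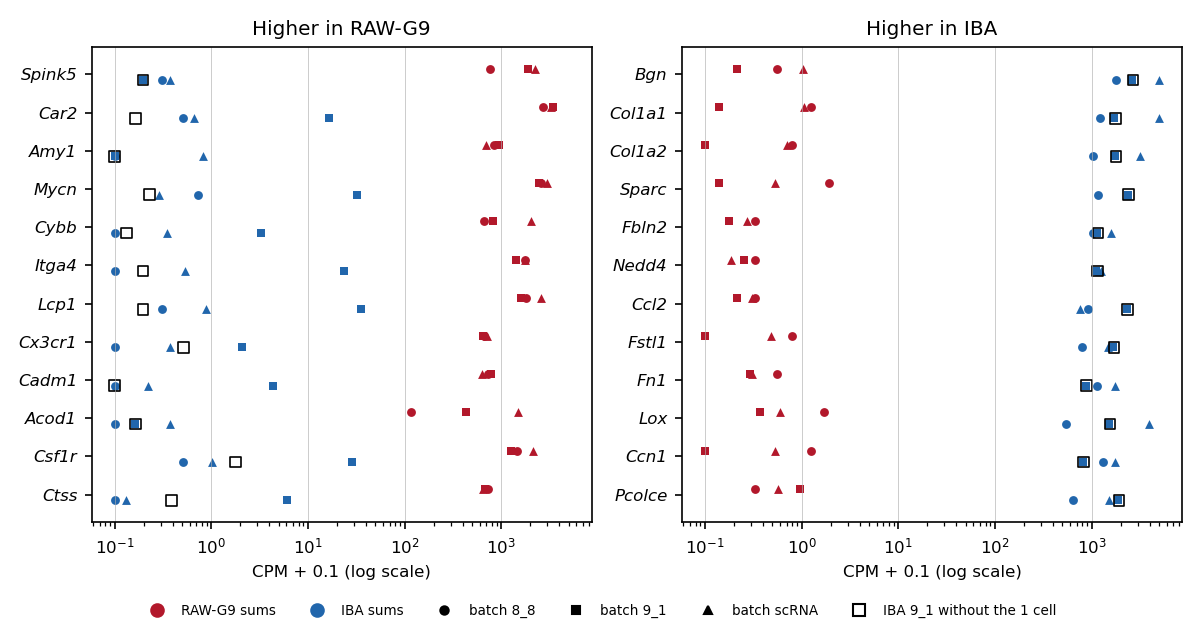
The 12 genes with the largest rise in each line are shown as CPM + 0.1 on a log scale, with 1 point per sum, coloured by line and shaped by batch, and open squares for the IBA sum of batch 9_1 without the odd cell. RAW-G9 and IBA sums do not overlap for any of the 24 genes, and in the left panel the filled 9_1 square of IBA lies to the right of the open one for Car2, Mycn, Cybb, Itga4, Lcp1, Cx3cr1, Cadm1, Csf1r and Ctss.

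Of the macrophage transcription factors, 10 of 14 tested genes rose in RAW-G9 and 1 fell, with a median of 3.20, or 3.21 without the odd cell. Spi1, which encodes PU.1, was at 459.4, 490.3 and 482.5 CPM in RAW-G9 and at 0, 5.997 and 0.0620 CPM in IBA, where the 9_1 value fell to 0 CPM without the odd cell. Its log2 fold change was 8.28 ± 1.18 (adjusted p = 0.000668), and without that cell, with 2 counts left in IBA, its pooled ratio was 16465 (95% interval 4558 to 135960.0). Irf8, its partner at many macrophage enhancers, was at 151.5, 222.5 and 217.8 CPM in RAW-G9 and had no count in IBA, the odd cell included, so it was at least 4921-fold higher (adjusted p = 5.39e-06). Lyl1 and Ikzf1, both haematopoietic factors, had log2 fold changes of 6.76 ± 1.31 and 8.21 ± 0.96. With that cell left out they had 3 and 1 counts left in IBA, and pooled ratios of 3111 (95% interval 1064 to 15088) and 5751 (95% interval 1032 to 227184).

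Maf went the other way. This factor of mature tissue macrophages had no count in any RAW-G9 sum and stood at 3.95, 25.2 and 10.9 CPM in IBA, at least 364.01-fold higher there (adjusted p = 0.00255). Cebpa, Cebpb and Klf2 were not called. Tfec and Batf3 did not pass the detection filter.

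All 15 surface receptors tested, of 28 listed, rose in RAW-G9, with a median of 7.00, or 10.29 without the odd cell and with genes without a count at their bound. Those 15 had to reach the detection filter in 1 line, and the 13 others did not. Trem2, a lipid-sensing receptor, was at 556.7, 536.7 and 327.5 CPM against 0, 11.5 and 0.124 CPM in IBA, and the 9_1 value fell to 0.0323 CPM without the odd cell. Its log2 fold change was 7.68 ± 1.27, or 12.26 without the cell. Cx3cr1, the fractalkine receptor, was at 660.5, 652.2 and 713.6 CPM against 0, 1.97 and 0.279 CPM, and Clec4e, the receptor Mincle, at 193.7, 386.5 and 832.02 CPM against 0, 2.51 and 0.217 CPM. The RAW-G9 levels of Cx3cr1 were nearly the same in all 3 sums, whereas those of Clec4e spread over the batches.

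Downstream of these receptors, all 16 genes tested of ITAM and Fc receptor signalling (20 listed) rose in RAW-G9, with a median of 7.43, or 9.38 without the odd cell and with bounds. Those 16 had to reach the detection filter in 1 line, and the other listed genes did not. Fcer1g, the signalling chain of Fc receptors, was at 749.5, 1238 and 441.1 CPM against 0.208, 15.4 and 0.217 CPM, a log2 fold change of 8.15 ± 1.04, or 11.98 without the odd cell. Tyrobp, the adaptor of TREM2, had a log2 fold change of 8.09 ± 1.07 and the kinase Btk one of 7.99 ± 1.05. Each had, without the odd cell, 2 counts left in IBA, and the pooled ratios were 14506 (95% interval 4015 to 119791) and 7566 (95% interval 2094 to 62482). Ptpn6, the phosphatase SHP-1 that damps this signalling, was at 455.9, 407.2 and 576.9 CPM against 0, 7.01 and 0.465 CPM, a log2 fold change of 7.78 ± 1.09, or 9.44 without the cell. Activating and damping members thus stood on the same side.

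The Toll-like receptor list was split, with 6 of 16 tested genes higher in RAW-G9, 1 higher in IBA and a median of 0.74. Tlr2, a receptor of bacterial lipoproteins, was at 299.6, 311.6 and 345.5 CPM in RAW-G9 and at 8.11, 25.1 and 34.4 CPM in IBA, a log2 fold change of 3.82 ± 0.65. Tlr7, which senses RNA, had one of 5.85 ± 1.06, or 7.87 without the odd cell. Ticam2, the TLR4 adaptor TRAM, had one of 7.44 ± 1.28. Tlr13 had one of 6.15 ± 1.57 (adjusted p = 0.0148), and its call was lost without batch 8_8 (adjusted p = 0.0586) and without batch scRNA (adjusted p = 0.0670). Ticam2 and Tlr13 had no count in IBA without the odd cell, and were then at least 710.6-fold and at least 671.4-fold higher in RAW-G9. Irak3, an inhibitor of the pathway, was higher in IBA, at 0.832, 16.02 and 3.25 CPM against 0, 0.156 and 0 CPM, a log2 fold change of -6.65 ± 1.15. Adaptors and kinases such as Myd88 and Irak1 were not called. Myd88 stood at 65.5, 112.5 and 113.4 CPM in RAW-G9 and 56.2, 65.2 and 53.5 CPM in IBA, and it was chosen as an example after its values were seen.

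All 6 genes of the phagocyte NADPH oxidase rose in RAW-G9, with a median of 7.37, or 11.77 without the odd cell and with bounds. Cybb, the catalytic subunit, was at 665.5, 823.6 and 2044 CPM against 0, 3.17 and 0.248 CPM, a log2 fold change of 9.57 ± 1.30, or 13.12 without the odd cell. The cytosolic subunits Ncf1 and Ncf4 had log2 fold changes of 8.77 ± 1.20 and 7.36 ± 1.28, or 12.80 and 10.73 without the odd cell. Rac2, the GTPase that the oxidase needs, is described with its paralogue below.

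Lysosomal genes did not move as a block, since 11 of 27 tested genes were higher in RAW-G9, 3 were higher in IBA and 13 were not called, with a median of 0.72. Ctss, a cathepsin of antigen-presenting cells, was at 725.3, 684.9 and 646.95 CPM against 0, 5.93 and 0.0310 CPM, a log2 fold change of 8.81 ± 1.26, or 12.07 without the odd cell. Ctsc, the cathepsin that activates granule proteases, was at 90.9, 122.4 and 77.7 CPM against 0, 0.413 and 0.434 CPM, a log2 fold change of 7.99 ± 0.50 that the odd cell did not touch.

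Lyz2, the macrophage lysozyme, which may share reads with Lyz1, was at 1924, 3764 and 3157 CPM against 0.624, 445.8 and 0.898 CPM. The odd cell made nearly all of its 9_1 value in IBA, which fell to 0.226 CPM without it. Its log2 fold change was 6.999 ± 2.16 (adjusted p = 0.0290), or 12.29 without the cell. With that cell kept, the call was lost without batch 8_8 (adjusted p = 0.142) and without batch scRNA (adjusted p = 0.112).

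The 3 lysosomal genes higher in IBA were Ctsk, Cd63 and Lamp2. Cd63, a tetraspanin of late endosomes, was at 792.2, 1344 and 665.3 CPM in IBA against 225.5, 292.3 and 154.7 CPM in RAW-G9, a log2 fold change of -2.13 ± 0.21. Ctsk, a collagen-cleaving cathepsin, had one of -5.60 ± 1.15. Lamp2 had one of -1.10 ± 0.28, and its call was lost without batch 9_1 (−0.62) or batch scRNA (−1.15, adjusted p = 0.0756).

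Secreted proteins of macrophages were split as well, with 7 of 12 tested genes higher in RAW-G9 and 3 higher in IBA, and a median of 2.14. Plau, the protease urokinase, was at 994.9, 1906 and 1100.3 CPM in RAW-G9 against 11.6, 13.5 and 12.98 CPM in IBA, a log2 fold change of 6.55 ± 0.59. The chemokines Ccl3 and Ccl4 had log2 fold changes of 7.70 ± 1.38 and 8.29 ± 1.21, and the cytokine Tnf, present before any stimulus, one of 8.46 ± 1.18. Without the odd cell Ccl3 had one of 10.55, Ccl4, with 2 counts left in IBA, a pooled ratio of 8247 (95% interval 2283 to 68103), and Tnf, with none, was at least 6200.4-fold higher. Il1b was counted in only 7 RAW-G9 cells (4.46%) and was not tested.

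The 3 members higher in IBA were Ccl2, Ccl7 and Il1rn. The monocyte chemokine Ccl7 was at 642.9, 1509.8 and 626.2 CPM in IBA and at 0.692, 0.0391 and 0.116 CPM in RAW-G9, a log2 fold change of -12.72 ± 0.83, next to Ccl2 above. Il1rn, the IL-1 receptor antagonist, was at 0, 21.9 and 134.3 CPM in IBA, uneven over the batches, against 0, 0.547 and 0 CPM, with a log2 fold change of -7.82 ± 1.83 (adjusted p = 0.0165). Both lines were at 0 in batch 8_8, so the groups overlapped, and DESeq2 did not call Il1rn (adjusted p = 0.0736).

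**Figure D3:**
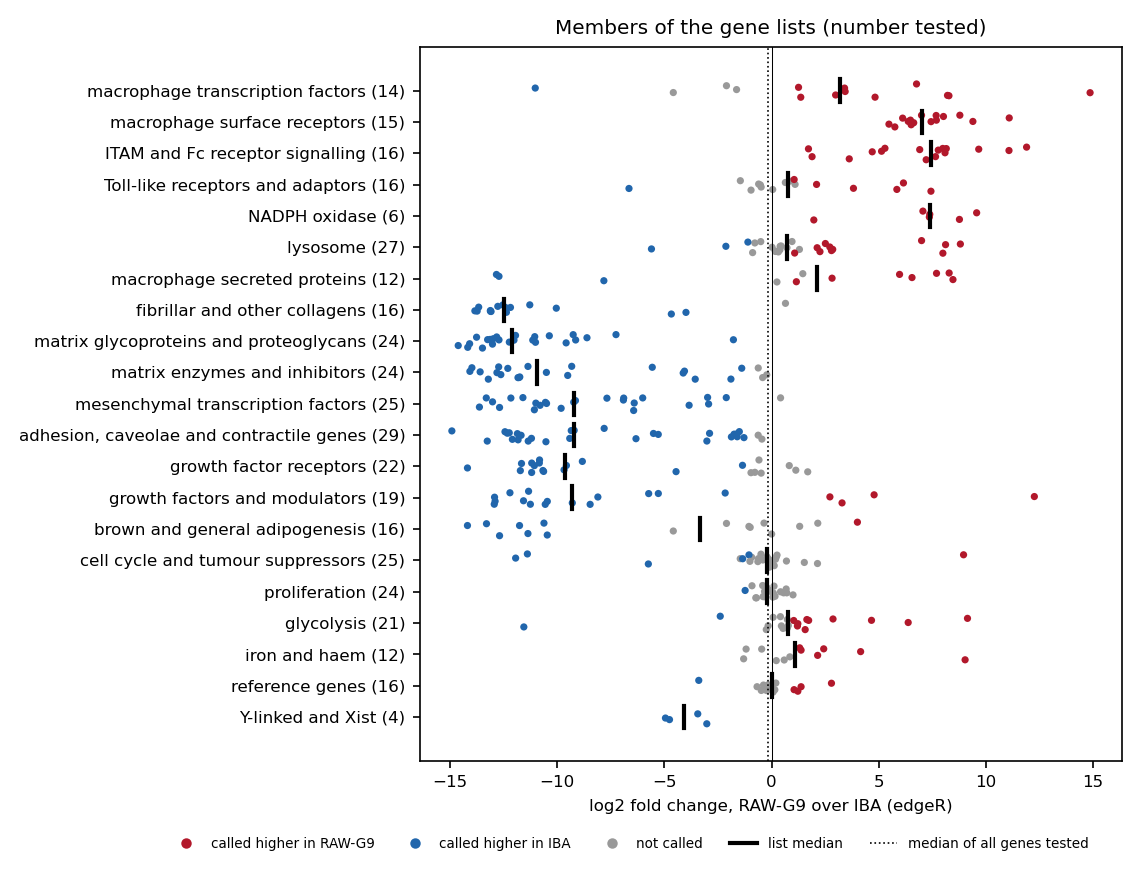
Each point is a tested member of a gene list, placed by its log2 fold change of RAW-G9 over IBA from edgeR, red where called higher in RAW-G9, blue where called higher in IBA and grey where not called, with a bar at the list median and a dotted line at the median of all genes tested (−0.15). Macrophage receptor, ITAM and oxidase genes lie on the right, all called matrix and mesenchymal genes lie on the left, and most proliferation genes lie near 0. Values beyond about 10 in either direction include genes with no count in 1 line, whose fitted fold depends on the prior count.

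Many genes of cytoskeleton and signalling exist as a haematopoietic member and a broadly used paralogue. In 20 such families, 21 of 22 haematopoietic members were tested and all 21 were called higher in RAW-G9, with a median of 6.99 (11.16 without the odd cell and with bounds), whereas of 28 broad members tested 13 were called higher in IBA, none higher in RAW-G9, and the median was −0.65. The members tested had to reach the detection filter in 1 line, which for haematopoietic members near 0 in IBA can only be RAW-G9. Prkcb, the haematopoietic member not tested, was counted in no cell of either line. In 11 families both sides were called in opposite directions, in 8 only the haematopoietic member was called, and in 1, classical protein kinase C, only the broad member was. Without the odd cell these counts of members were the same. Leaving out a batch changed some broad members. Myo1e was called higher in RAW-G9 without batch 8_8 (1.40, adjusted p = 0.00984), and Vav3 without batch 9_1 (3.37, adjusted p = 0.0372). The IBA calls of Coro1b, Ptpn11 and Myo1c were each lost under some alternative runs.

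The widest exchange was between HS1 and cortactin, related proteins that bind branched actin. Hcls1, which encodes HS1, was at 267.97, 225.1 and 382.5 CPM in RAW-G9 and at 0, 3.62 and 0.155 CPM in IBA, a log2 fold change of 7.80 ± 1.13, or 11.36 without the odd cell. Cttn, which encodes cortactin, was at 277.7, 236.1 and 341.8 CPM in IBA and at 0, 0 and 0.0291 CPM in RAW-G9, where 1 count was found, and the pooled ratio was 18566 (95% interval 3332 to 733368). On levels scaled for transcript length, HS1 made up 100, 100 and 99.9954% of the pair in RAW-G9 and 0, 2.48 and 0.0752% in IBA, and the 9_1 value was 0.0446% without the cell.

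Kindlins, which activate integrins, changed places in the same manner. Fermt3 was at 190.9, 227.8 and 208.3 CPM in RAW-G9 and 1.04, 5.05 and 0.279 CPM in IBA, a log2 fold change of 6.82 ± 0.81, or 8.26 without the odd cell, and Fermt2 at 107.3, 81.8 and 102.98 CPM in IBA and 0.692, 0.0391 and 0.0291 CPM in RAW-G9, one of -9.99 ± 0.92. Fermt3 held 99.6, 100 and 100% of the length-scaled pair in RAW-G9 and 0.862, 5.24 and 0.242% in IBA, where the 9_1 value was 0.965% without the cell. In NCKAP1, a subunit of the actin-branching WAVE complex, Nckap1l had a log2 fold change of 6.48 ± 1.31 and Nckap1 one of -7.12 ± 0.48. Without the cell Nckap1l had 2 counts left in IBA and a pooled ratio of 4207 (95% interval 1164 to 34747).

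In other families the broad member was not called. Rac2 was at 495.6, 583.3 and 576.3 CPM in RAW-G9 and 0, 16.8 and 0.0310 CPM in IBA, a log2 fold change of 7.38 ± 1.60, and its pooled ratio without the odd cell, with 2 counts left in IBA, was 19512 (95% interval 5401 to 161118). Rac1 was at 241.9 ± 52.8 CPM (SD, n = 3) in RAW-G9 and 340.5 ± 124.5 CPM in IBA, with a log2 fold change of -0.54 ± 0.19 (95% interval -0.96 to -0.13), which was not called. The Rac2 share was 75.996, 80.8 and 73.4% in RAW-G9 and 0, 8.50 and 0.00924% in IBA, or 0.0177% in 9_1 without the cell.

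Lcp1, the leukocyte plastin, had a log2 fold change of 7.71 ± 1.78 beside Pls3 at -0.65 ± 0.31, and Inpp5d, the phosphatase SHIP1, one of 6.91 ± 1.08 beside Inppl1 at -0.02 ± 0.37. Without the odd cell Lcp1 had one of 12.35 and Inpp5d one of 9.53. Pls3 was not called here, but it was called higher in IBA when batch 8_8 was left out (−1.03, adjusted p = 0.0153). Integrin beta chains differed, since Itgb2 rose in RAW-G9 (6.12 ± 1.55) and Itgb1 in IBA (-2.89 ± 0.26), yet Itgb1 kept 134.4, 113.4 and 275.3 CPM in RAW-G9. The Itgb2 call was lost without batch 8_8 (adjusted p = 0.0665), and its log2 fold change was 9.45 without the odd cell. Gmfg, a glia maturation factor, was detected in RAW-G9 alone, at least 131.6-fold above the floor, and still held only 11.4, 11.4 and 9.94% of its family there.

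**Figure D4:**
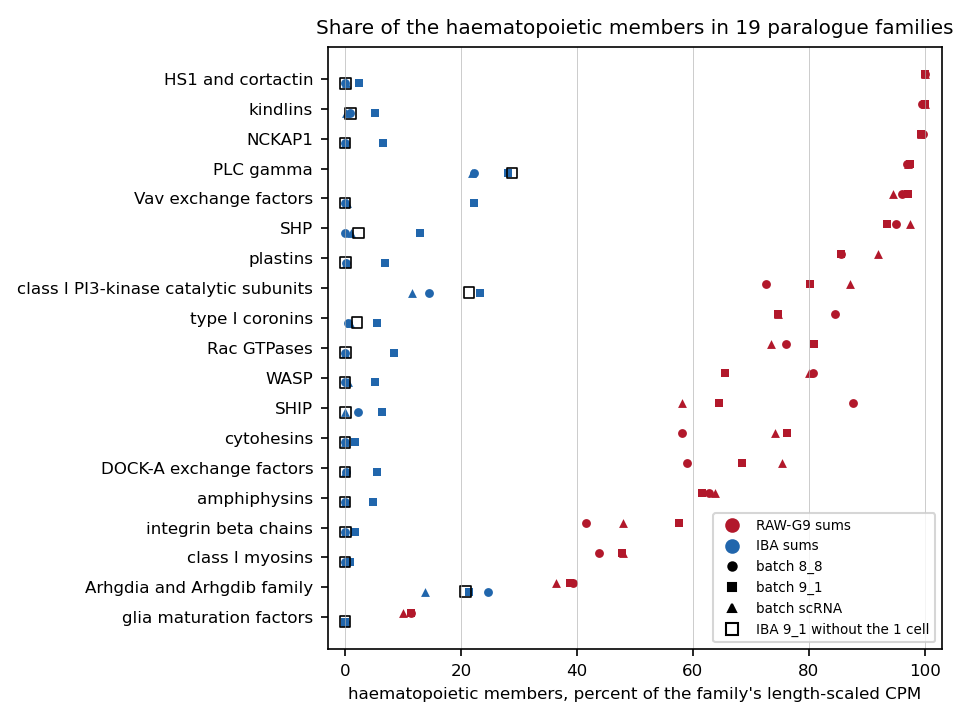
For 19 families the share of the haematopoietic members in the family's length-scaled CPM is shown in percent, with 1 point per sum, red for RAW-G9 and blue for IBA, shaped by batch, and open squares for the IBA sum of batch 9_1 without the odd cell. Red and blue points do not overlap in any of these 19 families. The distance is widest for HS1 and cortactin and narrowest for glia maturation factors and the Arhgdia and Arhgdib family. Classical protein kinase C is not drawn, because its haematopoietic member Prkcb was counted in no cell and its share was 0% in every sum of both lines.

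Promoters of both kinds of gene were read from RefSeq on GRCm38.p6. The motif GAGGAAGT, the core bound by PU.1, was searched on both strands of windows from 250 bases before to 50 after each start site, and none of the other motifs searched lies within it. It was found in 85 of 1557 promoters of genes higher in RAW-G9 (5.46%), in 58 of 2568 of genes higher in IBA (2.26%), in 2.93% of 7364 of genes tested but not called and in 1052 of all 32851 (3.20%). Of the haematopoietic paralogues, 17 had a promoter in the table and 4 of these held the motif (Cyth4, Inpp5d, Pik3cg and Vav1), against 0 of 21 broad members. The 250 bases before the start are shown for Vav1, Inpp5d and Pik3cg, which carry this contrast, and for Ctsc, the lysosomal gene above, with the motif or its reverse complement in capitals. They lie at chr17:57278850-57279099, plus strand (Vav1), chr1:87620062-87620311, plus strand (Inpp5d), chr12:32208471-32208720, minus strand (Pik3cg) and chr7:88277835-88278084, plus strand (Ctsc), and are written 5′ to 3′ in the direction of the gene.
Vav1: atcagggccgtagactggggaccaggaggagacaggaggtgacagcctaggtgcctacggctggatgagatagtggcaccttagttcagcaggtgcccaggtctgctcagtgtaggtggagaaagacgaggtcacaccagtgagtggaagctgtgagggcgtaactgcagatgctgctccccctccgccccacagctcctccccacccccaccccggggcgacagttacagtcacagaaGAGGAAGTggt
Inpp5d: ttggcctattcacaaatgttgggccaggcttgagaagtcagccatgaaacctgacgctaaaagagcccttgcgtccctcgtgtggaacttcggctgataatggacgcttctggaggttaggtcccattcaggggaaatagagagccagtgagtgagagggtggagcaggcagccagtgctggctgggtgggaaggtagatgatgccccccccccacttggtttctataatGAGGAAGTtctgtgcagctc
Pik3cg: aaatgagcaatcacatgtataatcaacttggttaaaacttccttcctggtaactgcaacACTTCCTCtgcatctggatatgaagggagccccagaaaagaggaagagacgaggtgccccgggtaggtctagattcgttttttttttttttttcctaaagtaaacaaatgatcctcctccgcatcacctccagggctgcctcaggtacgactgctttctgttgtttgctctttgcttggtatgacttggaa
Ctsc: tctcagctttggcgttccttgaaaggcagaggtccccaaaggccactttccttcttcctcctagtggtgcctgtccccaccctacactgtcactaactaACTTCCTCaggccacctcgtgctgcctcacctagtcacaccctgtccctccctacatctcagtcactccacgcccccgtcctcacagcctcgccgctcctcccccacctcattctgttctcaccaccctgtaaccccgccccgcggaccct

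The matches lay 11 bases before the start in Vav1 and 20 in Inpp5d, and farther upstream in Ctsc. The table lists 2 promoters for Pik3cg, and its match lies far upstream of the start in the one printed and 2 bases before that of the other. Vav1, an exchange factor of blood cells, was at 175.3, 144.8 and 149.9 CPM in RAW-G9 and at 0, 3.71 and 0.0310 CPM in IBA, a log2 fold change of 7.21 ± 1.22. It had, without the odd cell, 1 count left in IBA and a pooled ratio of 10177 (95% interval 1826 to 402013). Pik3cg, a PI3-kinase of leukocytes, was at 147.6, 172.8 and 218.4 CPM and had 2 counts in IBA, a pooled ratio of 6705 (95% interval 1856 to 55371). Inpp5d was at 305.3, 155.2 and 164.5 CPM in RAW-G9 and at 2.08, 3.55 and 0.0310 CPM in IBA, and at 0.0323 CPM in 9_1 without the odd cell. A match is a description of these letters and does not show binding.

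For the preadipocyte side GGAATG, the core of TEAD sites, and TATAAA were searched in the same windows. GGAATG was found in 14.5% of promoters of genes higher in IBA, 13.6% of genes higher in RAW-G9, 10.6% of genes not called and 14.7% of all promoters, and TATAAA in 7.67%, 8.67%, 6.11% and 13.6%. The AP-1 core TGANTCA was found in 6.23%, 6.04%, 4.35% and 7.81%. None of these 3 shares was higher on the IBA side than among all promoters. All 3 were higher there, and on the RAW-G9 side too, than among genes tested but not called. Of the paralogues, GGAATG was found in 4 of 17 haematopoietic and 4 of 21 broad members. The AP-1 core was found in 1 and 4 of them, and TATAAA in 2 and 1. Ccn1 and Col3a1 are shown as 2 genes of the matrix and its signalling, at chr3:145649986-145650235, minus strand and chr1:45311288-45311537, plus strand, with CATTCC (the reverse complement of GGAATG) and TATAAA in capitals.
Ccn1: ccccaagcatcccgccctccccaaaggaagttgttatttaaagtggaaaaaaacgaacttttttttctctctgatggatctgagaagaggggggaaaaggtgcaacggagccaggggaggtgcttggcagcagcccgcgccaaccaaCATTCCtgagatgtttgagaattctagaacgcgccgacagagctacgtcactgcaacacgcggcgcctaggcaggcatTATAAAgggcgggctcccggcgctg
Col3a1: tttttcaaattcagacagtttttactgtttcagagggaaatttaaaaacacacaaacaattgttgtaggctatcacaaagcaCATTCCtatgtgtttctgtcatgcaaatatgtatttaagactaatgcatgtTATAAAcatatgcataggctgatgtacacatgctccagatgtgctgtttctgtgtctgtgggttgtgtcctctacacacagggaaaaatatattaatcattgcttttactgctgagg

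In both genes the match to the TEAD core lay upstream of TATAAA, which was 25 bases before the start in Ccn1 and farther away in Col3a1. Ccn1, a secreted adhesion protein and a known target of YAP and TEAD factors, was at 1313, 806.3 and 1753 CPM in IBA and at 1.15, 0 and 0.436 CPM in RAW-G9, a log2 fold change of -12.09 ± 0.72 (adjusted p = 7.28e-06). Col3a1, a fibrillar collagen, was at 258.7, 842.2 and 1507 CPM against 0, 0 and 0.175 CPM, a log2 fold change of -13.66 ± 0.69.

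Of the collagens, 15 of 16 tested genes (20 listed) were higher in IBA and none in RAW-G9, with a median of −12.47, or −12.39 with genes without a count at their bound. Col1a2, which forms type I collagen with Col1a1, was at 1043, 1764 and 3145 CPM against 0.692, 0 and 0.611 CPM, a log2 fold change of -12.77 ± 0.80. Col5a2, a chain of the type V collagen that seeds fibrils, was at 492.5, 596.4 and 1981 CPM against 0, 0 and 0.320 CPM, one of -13.12 ± 0.62. The collagen that was not called was Col15a1, named after its values were seen, at 22.8, 5.86 and 9.34 CPM in RAW-G9 and 0, 6.73 and 12.4 CPM in IBA. Within IBA, Col1a1, Col1a2, Col3a1 and Col5a2 were all highest in batch scRNA.

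All 24 matrix glycoproteins and proteoglycans tested, of 30 listed, were higher in IBA, with a median of −12.13, or −11.15 with bounds. Those 24 had to reach the detection filter in 1 line. Of the members that did not, Mdk was counted in 30 RAW-G9 cells (19.1%) and in 1 IBA cell. The others were counted in no RAW-G9 cell and in at most 5 IBA cells. Fn1, which encodes fibronectin, was at 1149, 866.5 and 1729.8 CPM against 0.461, 0.195 and 0.204 CPM, a log2 fold change of -12.72 ± 1.02. Fbln2, the elastic-fibre protein fibulin-2, was at 1029.5, 1147 and 1588 CPM against 0.231, 0.0781 and 0.175 CPM, one of -13.25 ± 0.56 (adjusted p = 1.30e-06).

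Enzymes that mature the matrix followed, with 21 of 24 tested genes higher in IBA and none in RAW-G9, and a median of −10.93, or −10.01 with bounds. Lox, the oxidase that cross-links collagen, was at 541.8, 1519.5 and 3895 CPM against 1.61, 0.274 and 0.495 CPM, a log2 fold change of -11.83 ± 0.88, and its relative Loxl1 had one of -11.78 ± 0.48. Pcolce, which speeds procollagen cleavage, was at 649.5, 1885 and 1527 CPM against 0.231, 0.860 and 0.465 CPM, one of -11.36 ± 0.43 (adjusted p = 8.32e-07). Timp1, a protease inhibitor, was at 681.4, 805.4 and 637.1 CPM against 0.461, 0.117 and 0.116 CPM, one of -12.30 ± 0.52. The 3 enzymes not called, all of collagen hydroxylation, are named after their values were seen. P4ha1 stood at 243.5, 214.9 and 227.1 CPM in RAW-G9 and 230.9, 445.6 and 343.2 CPM in IBA, and Plod1 and Plod2 had log2 fold changes of -0.22 ± 0.28 and -0.42 ± 0.39.

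Of the mesenchymal transcription factors, 24 of 25 tested genes were higher in IBA, with a median of −9.23, or −7.68 with bounds. Prrx1, a homeobox factor of limb and connective tissue, was at 366.3, 344.9 and 529.6 CPM in IBA and had 2 counts in RAW-G9, a pooled ratio of 13930.1 (95% interval 3856 to 115031). Nfib also had 2 counts there and a ratio of 5051 (95% interval 1398 to 41717), and Osr1 had 3 and a ratio of 2176 (95% interval 744.1 to 10552). Snai1, a driver of mesenchymal transition, was at 148.9, 180.02 and 96.7 CPM against 0, 0.0391 and 0.553 CPM, a log2 fold change of -9.15 ± 0.87. The only member not called was Zeb2, which macrophages also use, at 127.5, 125.9 and 155.2 CPM in RAW-G9 and 94.4, 66.9 and 140.8 CPM in IBA. It was named after its values were seen.

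Adhesion, caveolar and contractile genes were higher in IBA in 27 of 29 cases, with a median of −9.21. Cald1, the actin-binding caldesmon, was at 979.8, 876.98 and 841.8 CPM against 1.38, 0.0391 and 0.175 CPM, a log2 fold change of -11.86 ± 0.86, and Cavin1, the coat protein of caveolae, at 835.7, 562.3 and 982.1 CPM against 0.922, 0.0391 and 0.495 CPM, one of -11.20 ± 0.73. Cnn3, a calponin, had one of -11.82 ± 0.66. These 3 genes were picked for large differences, and all their IBA sums lay above all their RAW-G9 sums.

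Receptors for growth factors were higher in IBA in 15 of 22 tested genes, with a median of −9.62, or −9.20 with bounds, and in RAW-G9 in none. Pdgfrb was at 146.4, 175.4 and 192.4 CPM against 0, 0 and 1.34 CPM, a log2 fold change of -8.83 ± 0.84, and Fgfr1 at 174.9, 186.7 and 165.04 CPM against 0.231, 0.117 and 0.0582 CPM, one of -10.83 ± 0.60. Ddr2, a receptor for collagen itself, had one of -9.68 ± 0.82, and Osmr, the oncostatin M receptor, one of -11.72 ± 0.65. Pdgfra, the marker of adipocyte precursors, was at 49.7, 188.8 and 116.5 CPM and had no count in RAW-G9, at least 3109-fold higher in IBA. The 7 receptors not called include those of TGF-β, named after their values were seen. Tgfbr2 stood at 231.3, 187.8 and 266.1 CPM in RAW-G9 and 68.4, 119.5 and 108.5 CPM in IBA, and Tgfbr1 at 207.1, 64.2 and 95.4 CPM and 21.01, 31.4 and 37.2 CPM. Without the odd cell, Tgfbr1 was called higher in RAW-G9.

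Growth factors and their modulators were split between the lines, with 15 of 19 tested genes higher in IBA and 4 higher in RAW-G9, and a median of −9.30, or −8.46 with bounds. Csf1, the ligand of CSF1R, was at 766.4, 225.5 and 910.3 CPM in IBA and at 0.461, 1.02 and 9.28 CPM in RAW-G9, a log2 fold change of -8.10 ± 0.91 (adjusted p = 0.000191), opposite to its receptor. Fgf7, a fibroblast growth factor, was at 269.97, 253.6 and 389.7 CPM against 0.461, 0.0391 and 0.0291 CPM, one of -12.20 ± 0.68. The Wnt modulator Sfrp2 had one of -12.94 ± 1.67 and Igfbp7, which binds insulin-like growth factors, one of -11.25 ± 1.12.

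The 4 genes higher in RAW-G9 were Cxcl14, Igf1, Igfbp4 and Tgfb1. Igf1 was at 276.97, 400.97 and 279.7 CPM in RAW-G9 and 3.54, 13.2 and 17.6 CPM in IBA, a log2 fold change of 4.78 ± 1.01 (adjusted p = 0.00472). Its receptor Igf1r, named here after its values were seen, was at 57.8, 47.9 and 36.4 CPM in IBA and had 1 count in RAW-G9. Tgfb1 was at 17.1, 21.1 and 30.3 CPM against 3.54, 0.984 and 7.37 CPM, one of 2.72 ± 0.57, and Igfbp4 had one of 3.29 ± 0.62. The chemokine Cxcl14 was at 147.8, 122.3 and 84.9 CPM in RAW-G9, with 1 count in IBA and a pooled ratio of 7136 (95% interval 1280.3 to 281898). For CSF1 and IGF1 the ligand and its receptor were thus each higher in opposite lines.

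Of the adipogenesis list only 16 of 25 listed genes were tested, of which 7 were called higher in IBA and 1 in RAW-G9, with a median of −3.34. Pparg, the master regulator of fat cells, was at 94.8, 33.8 and 87.2 CPM in IBA with no count in RAW-G9, at least 1355-fold higher, and Ebf2, a selector of the brown lineage, at 17.7, 32.02 and 57.7 CPM with no count, at least 923.6-fold higher. Ly6a, the surface protein Sca-1 of precursor cells, was at 26.2, 261.98 and 80.9 CPM and had 2 counts in RAW-G9, a pooled ratio of 5152 (95% interval 1426 to 42549). Ppargc1b, a coactivator of mitochondrial genes, was higher in RAW-G9, at 40.6, 34.8 and 34.2 CPM against 0, 2.13 and 2.97 CPM, a log2 fold change of 4.01 ± 1.07, and its call was lost without batch scRNA (adjusted p = 0.0579) and with 15 cells per batch and line (adjusted p = 0.112). Of the markers of mature or thermogenic fat cells, Prdm16, Ppargc1a, Cidea, Dio2, Elovl3, Adipoq and Plin1 did not pass the filter. Prdm16 and Ppargc1a were counted in 12.4% and 7.19% of IBA cells, Adipoq and Plin1 were found in 1 IBA cell each, and Cidea and Dio2 in none.

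The MYC family was divided between the lines. While Mycn was high in RAW-G9, Myc was at 292.01, 172.1 and 273.02 CPM in IBA and at 0.231, 9.34 and 7.04 CPM in RAW-G9, a log2 fold change of -5.75 ± 0.87 (adjusted p = 0.000914). Also on the IBA side were the cell-cycle inhibitors of the Cdkn2 locus. Cdkn2b was at 53.2, 266.4 and 150.5 CPM in IBA with 3 counts in RAW-G9, a pooled ratio of 4220.3 (95% interval 1444 to 20467), and Cdkn2a at 18.9, 76.1 and 19.95 CPM with 1 count in RAW-G9, a ratio of 2936 (95% interval 526.5 to 115995).

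Of the cell-cycle and tumour-suppressor list, these included, 5 of 25 tested genes were higher in IBA, 1 was higher in RAW-G9 and 19 were not called, beside 21.6% and 13.4% of all genes tested, with a median of −0.21. Trp53 was at 389.97, 464.5 and 398.99 CPM in RAW-G9 and 395.6, 298.1 and 388.5 CPM in IBA, with a log2 fold change of 0.12 ± 0.20 (95% interval -0.32 to 0.57), and was named after its values were seen. Of 24 proliferation genes 1 was called, Mcm4, a subunit of the replicative helicase, at -1.23 ± 0.41 (adjusted p = 0.0386), which was lost without batch scRNA (adjusted p = 0.129) and under 3 other alternatives. Their median was −0.21, beside −0.15 over all genes tested.

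Glycolysis leaned to RAW-G9, with 10 of 21 tested genes higher there, 2 higher in IBA and a median of 0.78. The glucose transporters Slc2a3 and Slc2a6 had log2 fold changes of 6.37 ± 0.85 and 4.66 ± 0.35, and Hk3, a hexokinase of myeloid cells, was at 4.61, 62.05 and 44.7 CPM against 0, 0.159 and 0 CPM, one of 9.14 ± 1.08. Hk3 had no count in IBA without the odd cell and was then at least 1109-fold higher in RAW-G9. Aldoc, an aldolase, had a log2 fold change of 2.87 ± 0.73, and its call was lost without batch 8_8 (adjusted p = 0.0556) and without batch scRNA (adjusted p = 0.127). On the IBA side Ldhb, the lactate dehydrogenase chain of oxidative tissue, was at 21.4, 19.9 and 15.4 CPM with no count in RAW-G9, at least 383.7-fold higher. Pfkm, the muscle phosphofructokinase, had a log2 fold change of -2.39 ± 0.59, and its call was lost without batch 9_1 (adjusted p = 0.0741).

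Some abundant genes were alike in both lines. Of the 7817 genes not called, 73 had a 95% interval within 0.5 of 0 on the log2 scale, and the most abundant were Ppia, Tpt1, Atp5f1, Nap1l1, Mdh2, Sdcbp, Eprs and Arhgdia. Ppia, the cyclophilin A gene, was at 2018, 2077 and 800.3 CPM in RAW-G9 and 1616, 1970.0 and 846.3 CPM in IBA, with a log2 fold change of 0.02 ± 0.20 (95% interval -0.43 to 0.47). Its level differed more between batches than between lines. Arhgdia, an inhibitor of small GTPases whose paralogue Arhgdib is the haematopoietic one, was at 601.2, 714.4 and 647.9 CPM and 674.3, 598.2 and 605.8 CPM, an interval of -0.40 to 0.36, while Arhgdib had a log2 fold change of 1.31 ± 0.24.

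The same contrast was measured in other cells by Live-seq, with 4 sums of 8, 20, 63 and 12 RAW-G9 samples and 3 sums of 13, 14 and 17 IBA samples of cytoplasm. Batch 8_8 has the same name in both techniques, but no library is shared. There 0.938% of the genes were called higher in RAW-G9 and 1.57% higher in IBA. Of the 1619 genes called higher in RAW-G9 by scRNA-seq, 1527 (94.3%) had the same sign in Live-seq, and of the 2605 called higher in IBA, 2507 (96.2%) did. Among genes not called by scRNA-seq 50.3% were positive in Live-seq. Live-seq called 6.92% and 7.22% of these genes, which were 99.1% and 99.5% of its calls, and called none in the opposite direction.

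Among the markers, Live-seq called Csf1r (adjusted p = 0.00767) and Laptm5 (adjusted p = 0.000543) higher in RAW-G9, and Ptn (adjusted p = 0.00308) higher in IBA, whereas Col12a1 was not called (adjusted p = 0.0991). Mycn was called higher in RAW-G9 there too (adjusted p = 0.000523). All named genes called by scRNA-seq had the same sign in Live-seq, and 67 were called there.

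**Figure D5:**
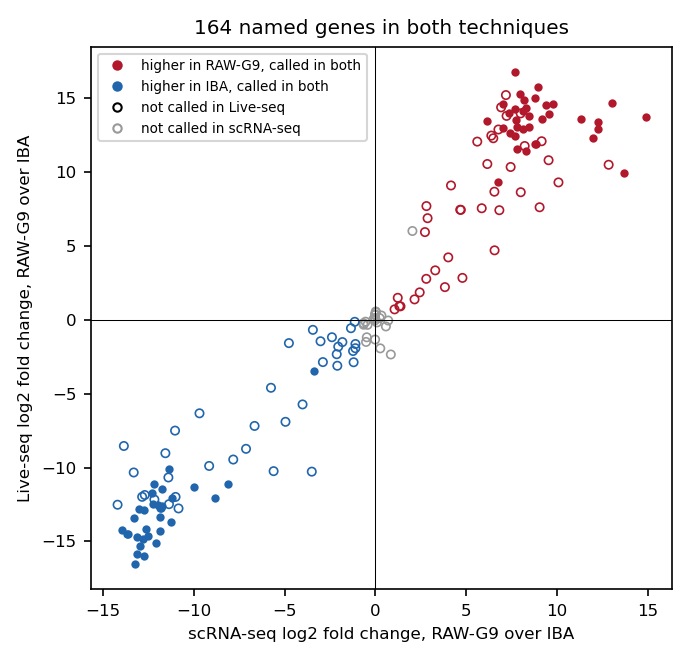
The log2 fold change of RAW-G9 over IBA in Live-seq (y axis) is plotted against that in scRNA-seq (x axis) for the named genes, with filled points for the 67 called in both techniques, open coloured points for genes called in scRNA-seq alone and grey ones for genes not called. All genes called in scRNA-seq lie at the lower left or the upper right of the axes, and values beyond about 10 depend on the prior count.

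RAW-G9 cells held fewer detected genes than IBA cells. At 50000 counts per cell the mean of the batch medians was 6085 genes in RAW-G9 and 6759 in IBA, a difference of −673.8 ± 121.1 (SD, n = 3 batches), lower in RAW-G9 in 3 of 3 batches. With 3 batches an exact permutation test cannot go below p = 0.25. Without thinning the difference was −1078 genes.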

How the data were processed

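Counts per gene were used as deposited by the authors, whole numbers for 30452 features in 1012 single-cell libraries. Per the study's methods and the submitters' processing notes, reads were mapped to mm10/GRCm38 with STAR 2.6.1c and counted with HTSeq without strand, after bcl2fastq 2.19.1. Members and gene lists were chosen with earlier results of these data known.

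Following the study, 20 negative-control genes and 89 genes of ribosomal proteins were removed. A gene was kept where 15% of the cells of 1 of the lines, or more, had 2 or more counts of it, then filterByExpr was applied (12041 genes). Counts were summed per line, state and batch, and the 12 scRNA-seq sums of all 5 states were fitted with edgeR 4.0.16 (R 4.3.3; TMM, quasi-likelihood F test, batch as block). A gene was called at a Benjamini-Hochberg adjusted p under 0.05 and over 2-fold. A gene without a count in 1 line was compared with a floor of 3 counts over that line, and genes with 1 to 3 counts are given as pooled ratios with exact 95% intervals.

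The batch names come from the labels and are shared by both lines. Deviations of same-batch sums correlated at 0.247, 0.320 and 0.353, so batch was taken as pairing. Named genes were the 4 markers, the 12 called genes in each direction with the largest difference in mean log2(CPM + 1) and the same direction in all 3 batches, up to 4 called genes of each list by the same measure and up to 4 called against the list's direction, every paralogue, 8 abundant genes alike in both lines and the reporters. On simulated data with known changes, 31.8% of 66 genes at log2 1.5, 76.1% of 67 at log2 2 and 100% of 67 at log2 4 were called. The simulation gave every gene the same dispersion (0.16) and no batch effect. Its shares therefore need not hold for real genes, whose spread differs from gene to gene and between batches. The lists have 8 entries that were not analysed here, and some named genes are not reported here. The alternatives were other normalizations (RLE, library size), DESeq2 1.42.0, other filters, equal cell numbers, leaving out each batch, and leaving out the cell that went against its label.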

Additional observations from a re-analysis of the deposited data

How the results depend on the processing

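The number of genes called higher in RAW-G9 and in IBA ranged from 1057 to 1739 and from 1945 to 2492 when 1 batch was left out, against 1619 and 2605, and the lowest counts came without batch scRNA (1057 and 1945). Without the replicate block the counts were 1399 and 2272, and with DESeq2 1808 and 2715. The calls of Lyz2, Lamp2, Aldoc, Cp, Kdm5d and Ptpn11 were lost without the replicate block (adjusted p = 0.0872, 0.0587, 0.0648, 0.109, 0.0540 and 0.0593), and no other named call was. Of the named genes called, 19 lost their call under at least 1 alternative run and none reversed. The cause of the lost calls was not tested. The difference in genes detected was −1078 without thinning and −854 at 100000 counts, against −673.8.

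Reads were counted without strand, so overlapping antisense genes cannot be told apart, and values of Lyz2, Amy1, Ccl2 and Ccl7, which have close relatives, are uncertain to that extent. With 3 sums a side, a change near 2-fold can be missed.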

Other observations

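Iron handling leaned to RAW-G9, with 6 of 12 tested genes called higher there and none in IBA. These counts stand beside 13.4% and 21.6% of all genes tested. The median was 1.08. Slc11a1, the phagosomal metal transporter NRAMP1, was at 76.8, 78.9 and 25.3 CPM in RAW-G9 and 4.78, 5.97 and 0.589 CPM in IBA, a log2 fold change of 4.16 ± 0.77. Trf, which encodes transferrin, was at 4.15, 2.89 and 4.13 CPM in RAW-G9 with no count in IBA, at least 83.2-fold higher. Slc40a1, the iron exporter ferroportin, was at 97.8, 153.8 and 56.8 CPM against 7.49, 21.5 and 15.1 CPM, and its call was lost without batch 9_1 (adjusted p = 0.115) and without batch scRNA (adjusted p = 0.0651).

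Of 16 reference genes commonly used for scaling, 4 were called higher in RAW-G9 and 1 in IBA, beside 13.4% and 21.6% of all genes tested. Over all genes tested, 35.1% were called in either direction. Gapdh was at 2745, 2897 and 2857 CPM in RAW-G9 and 1284, 1467 and 780.4 CPM in IBA, a log2 fold change of 1.23 ± 0.23 (adjusted p = 0.00247), which was 0.96 without batch scRNA.

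The 4 Y-linked genes tested were all called higher in IBA, with a median of −4.10. Each was counted in 3.82% to 5.73% of RAW-G9 cells and in 56.2% to 79.7% of IBA cells. Their RAW-G9 levels thus come from few cells. Ddx3y was at 1.38, 2.11 and 2.79 CPM in RAW-G9 and 63.9, 24.8 and 97.997 CPM in IBA, a log2 fold change of -4.95 ± 0.74 (adjusted p = 0.000844). The calls of Eif2s3y and Kdm5d were lost without batch 9_1 (adjusted p = 0.0757 and 0.245) and without batch scRNA (adjusted p = 0.0512 and 0.207). With 15 cells per batch and line those of Uty, Eif2s3y and Kdm5d were lost (adjusted p = 0.0510, 0.0502 and 0.170).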
